A study of Mus musculus with 29 samples.

Results

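The genes described are 10 endoplasmic reticulum (ER) stress and chaperone genes, Hspa5, Hsp90b1, Pdia4, Pdia6, Calr, Creld2, Xbp1, Atf4, Ddit3 and Trib3. They were chosen by symbol, and all 10 were found among the 24770 gene rows of the count table. They were followed in RNA-seq libraries of brown adipose tissue (BAT) and of gastrocnemius muscle (SkM) from wild-type male C57BL/6J mice, which were 8 weeks old when 8 weeks of treatment began. Control mice were sedentary and ate freely. Mice of the calorie restriction (CR) group had their food lowered week by week to a final 70% of free intake. Mice of the exercise (EX) group ran on a treadmill at a low intensity, and mice of the CREX group had both treatments. All mice were fasted for some hours before tissue was taken, which was a day after the last run in trained mice. BAT gave 3 control, 4 CR, 4 EX and 4 CREX libraries, and SkM gave 4 control, 3 CR, 4 EX and 3 CREX libraries. The labels do not say which BAT and SkM libraries came from the same mouse. They also do not say that libraries of a group came from separate mice, so the tests measure the spread between libraries.

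Proteins that are secreted or placed in membranes fold in the ER. When unfolded proteins build up there, the sensors IRE1, PERK and ATF6 start the unfolded protein response. IRE1 splices Xbp1 mRNA so that it encodes an active transcription factor, ATF6 is cut to release another, and PERK phosphorylates eIF2 alpha, which slows translation in general and raises translation of Atf4. XBP1 and ATF6 induce chaperones and folding enzymes, whereas ATF4 induces amino acid genes and the transcription factor CHOP, encoded by Ddit3. Brown adipocytes and muscle fibres both carry an extensive ER, which in muscle is largely the calcium store known as the sarcoplasmic reticulum. Gene counts of the kind used here add spliced and unspliced Xbp1 mRNA together and do not see translation of Atf4.

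XBP1 and ATF6 are known to act through the ER stress response element (ERSE), which reads CCAAT, 9 bases of any kind, and CCACG. These letters were sought on both strands of the 300 bases around each gene start (250 before and 50 from the start on, RefSeq, GRCm38.p6), in which all 10 genes had a window. The element was found in 5 of the 10 genes, Hspa5, Hsp90b1, Pdia6, Calr and Creld2, compared with 37 of 27025 genes (0.137%) in the whole promoter set. The members were chosen as known ER stress and folding genes, so this excess is a description and no test. The stretches are shown because this is the element through which ER folding genes are known to be induced, and 5 of the 6 folding genes here hold it. Each is printed on the strand that reads the element in this order, with 20 flanking bases on each side and with CCAAT and CCACG in capitals.
Hspa5, chr2:34772005-34772063, plus strand: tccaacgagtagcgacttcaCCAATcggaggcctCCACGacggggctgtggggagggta
Hsp90b1, chr10:86705618-86705676, minus strand: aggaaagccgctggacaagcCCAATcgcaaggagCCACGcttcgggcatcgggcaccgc
Hsp90b1, chr10:86705513-86705571, plus strand: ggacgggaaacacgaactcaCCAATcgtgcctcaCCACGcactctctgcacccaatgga
Pdia6, chr12:17266471-17266529, plus strand: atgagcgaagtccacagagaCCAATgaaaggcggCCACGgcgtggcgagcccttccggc
Calr, chr8:84847055-84847113, plus strand: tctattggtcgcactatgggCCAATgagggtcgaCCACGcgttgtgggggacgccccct
Creld2, chr15:88819500-88819558, minus strand: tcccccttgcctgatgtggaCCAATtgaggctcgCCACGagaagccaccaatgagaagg

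The Hspa5 element ended 47 bases before the gene start, and the pair in Hsp90b1 ended 194 and 89 bases before it. A shorter element bound by ATF4 with C/EBP proteins, TGATGNAA, was found only in Trib3 among the members, 14 bases after the start, compared with 4.51% of all genes; its fixed bases are in capitals.
Trib3, chr2:152344019-152344066, plus strand: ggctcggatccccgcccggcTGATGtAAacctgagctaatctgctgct
Neither ATTGG, 1 base of any kind and CCACG (ERSE-II) nor TGACGTGG (UPRE, the XBP1 element) occurred in a member's window, where 0.0444% and 0.714% of all genes hold them. In the other gene lists of the ER pathway, the ERSE was present in Canx and Dnajc3 of 14 chaperones and cochaperones, in Ero1lb of 14 disulfide isomerases and oxidases, and in Syvn1 and Derl3 of 17 degradation genes. A match is a description of the letters, and no match says only that they are not in this window. Among the members without an ERSE, Xbp1 lies at chr11:5520641-5525993 (plus strand), Atf4 at chr15:80255184-80257545 (plus), Ddit3 at chr10:127290793-127296291 (plus), Trib3 at chr2:152337425-152344060 (minus) and Pdia4 at chr6:47796141-47813512 (minus).

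BAT libraries held 21047242 to 24919377 counts and SkM libraries 23050918 to 23425284 counts, so 3 counts corresponded to 0.12 to 0.143 CPM (counts scaled to a common library size), a limit that covers counting error only. The tissues carried their markers, with Ucp1 at 1373 to 4750 CPM in BAT and Acta1 at 21530 to 45330 CPM in SkM. Some libraries stood apart. BAT libraries held variable muscle RNA, since the sum of 10 muscle markers ran from 2.93 to 620 CPM in control, 18.4 to 1331 in CR, 6.43 to 3642 in EX and 946 to 5794 in CREX libraries. In SkM, the sum of 7 slow fibre markers was 35.2 to 623 CPM in CREX libraries, 374 to 2015 in EX, 1704 to 2048 in CR and 1096 to 2124 in control libraries. The sum of 8 hepatocyte markers was 63.1 to 284 CPM in SkM CR libraries and 6.81 to 10.1 in control libraries, and no marker of these lists was at 0 throughout a group.

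In control mice the members differed between the tissues. All 10 were called between BAT and SkM control libraries, where edgeR called 74.9% of 13797 genes (76.5% at an unadjusted p under 0.05), so a difference was the usual outcome for a gene. The libraries of the 2 tissues did not overlap for 9 of the 10, as for 74.5% of all genes. The folding genes were higher in BAT. Pdia6, which encodes a disulfide isomerase, was 2.67-fold higher (log2 difference 1.42 ± 0.08 SE, edgeR adjusted p = 1.84e-08), and Pdia4, of the same enzyme family, was 2.24-fold higher. Hsp90b1 (GRP94) was 1.70-fold, Creld2, an ER-resident disulfide isomerase, 1.66-fold and Hspa5 (BiP, the main ER HSP70 chaperone) 1.63-fold higher. Calr, a calcium-binding lectin chaperone, differed least, at 1.21-fold. The folds between tissues rest on 1 TMM scaling over both tissues. That scaling assumes that most genes do not differ, whereas most were called here, so the sizes depend on it. Scaled within each tissue instead, the control means of Calr were 134.9 CPM in BAT and 91.85 CPM in SkM. Trib3, a pseudokinase gene induced by ATF4 and CHOP, was 4.05-fold higher in BAT, with 6.51, 6.64 and 6.48 CPM in the BAT libraries and 0.874, 1.54, 1.63 and 1.29 CPM in the SkM libraries, each scaled within its tissue. Every BAT library lay far above every SkM library. Ddit3 was 1.27-fold higher in BAT, and was the member whose libraries overlapped between the tissues when both were scaled together. Its call was lost without any 1 of BAT control libraries 1 and 3 and SkM control libraries 3 and 4 (edgeR adjusted p from 0.0502 to 0.0869). The transcription factor genes Xbp1 and Atf4 were lower in BAT, with log2 differences of -0.86 ± 0.09 and -1.29 ± 0.13 (SE, edgeR adjusted p = 5.28e-06 and 1.85e-06).

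Per kilobase of annotated exon, Calr stood highest in BAT control libraries, at 61.8 ± 0.709 CPM per kb (SD, n = 3), followed by Hspa5 at 43.6 ± 1.49, Atf4 at 41 ± 7.08 and Hsp90b1 at 37.8 ± 1.88. The SDs of Hspa5, Atf4 and Hsp90b1 bridged the gaps between them. In SkM control libraries Atf4 stood highest, at 83.2 ± 6.57 CPM per kb (SD, n = 4), followed by Calr at 42.1 ± 3.2, Hspa5 at 22.1 ± 1.07, Hsp90b1 at 18.4 ± 1.09 and Xbp1 at 17.7 ± 1.57, of which the last pair lay within their SDs of each other. Trib3 was the lowest member in both tissues, at 3.23 ± 0.0426 and 0.658 ± 0.166 CPM per kb. Exon lengths came from GENCODE M21 and are not the lengths of the transcripts actually present.

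**Figure D1:**
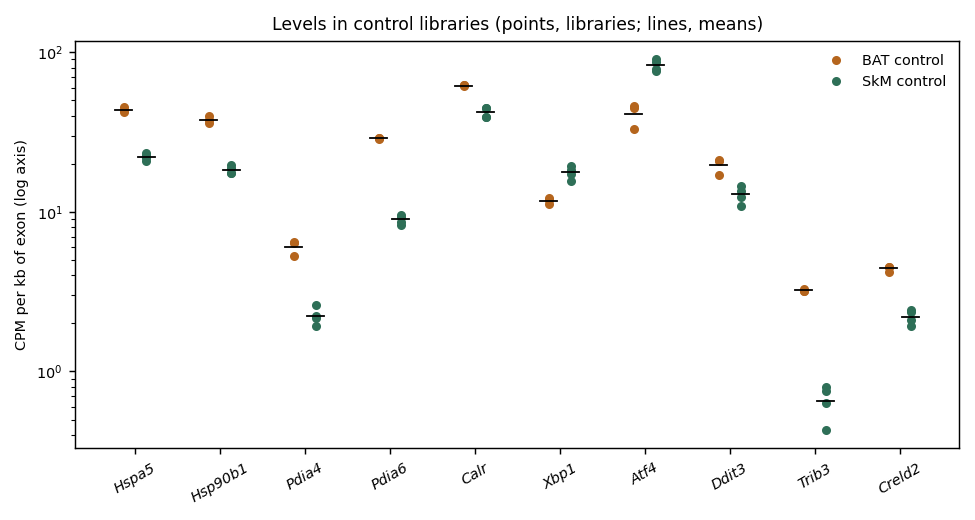
Level of each member in control libraries, in CPM per kb of exon on a log axis, with points for the 3 BAT and 4 SkM libraries and lines for the means. CPM was scaled within each tissue. Atf4 and Xbp1 stand higher in SkM, and the other 8 members stand higher in BAT, Trib3 by the widest gap.

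To find out how CR acted on these genes in BAT, the CR group was compared with the control group and the CREX group with the EX group. In the CR group compared with the control group, 0 of 10 members passed edgeR's quasi-likelihood test at an adjusted p under 0.05, while 20.9% of 13323 genes did. Atf4, Calr and Trib3 reached an unadjusted p under 0.05, where 35.8% of all genes did, and DESeq2 called 1 member, Atf4. Atf4 read 56.7, 78.9 and 76.7 CPM in the control libraries and 33.5, 48, 56.7 and 42.1 CPM in the CR libraries. Only CR library 3 reached the level of the lowest control library. The log2 fold change of Atf4 was -0.65 ± 0.19 (SE, 95% CI -1.11 to -0.19, edgeR adjusted p = 0.0542), and it passed without control library 1 (-0.79, adjusted p = 0.0371) or without CR library 3 (-0.79, adjusted p = 0.0157). In bulk tissue, fewer cells of a type and less RNA per cell cannot be told apart.

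The chaperone genes gave small differences in CR BAT. Calr read 136, 135 and 133 CPM in the control libraries and 151, 151, 143 and 158 CPM in the CR libraries, so that the groups did not overlap, as for 33.4% of all genes. Its log2 fold change was 0.16 ± 0.06 (SE, edgeR adjusted p = 0.0865). Trib3, at 6.51, 6.64 and 6.48 CPM against 8.29, 6.81, 7.62 and 8.51 CPM, did not overlap either (log2 fold change 0.26 ± 0.11, edgeR adjusted p = 0.128). For Hspa5 the 95% CI of the log2 fold change ran from -0.11 to 0.20, for Hsp90b1 from -0.10 to 0.26, for Pdia6 from -0.18 to 0.11 and for Xbp1 from -0.20 to 0.19. The intervals of these 4 genes held no change as large as 1.5-fold.

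In the CREX group compared with the EX group in BAT, 0 of 10 members were called by edgeR, 0 reached an unadjusted p under 0.05 and DESeq2 called 0. Over the whole table edgeR called 8.01% of 13251 genes, 25.6% reached an unadjusted p under 0.05, and 17.7% did not overlap, against 0 members. The fold changes lay between -0.18 for Atf4 and 0.09 for Hsp90b1 on the log2 scale, and their median of -0.02 was near that of all genes, -0.00204. The interaction of CR and EX was called for 0 of 10 members and 0% of 13922 genes. Calr was the only member with an unadjusted interaction p under 0.05, as 5.75% of all genes had (log2 difference -0.22 ± 0.08 SE, edgeR adjusted p = 0.824), and DESeq2 called 0 members.

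Because the effect of CR could be read with and without EX, CR was also tested over all 15 BAT libraries in 1 additive fit with EX, a comparison chosen after the pairwise values had been seen and made from the same libraries. There Atf4 was the only member called and was lower with CR, at a log2 fold change of -0.40 ± 0.13 (SE, 95% CI -0.68 to -0.11, edgeR adjusted p = 0.034), in a fit that called 33.3% of all genes and in which 43.6% reached an unadjusted p under 0.05. EX libraries read 45.2, 65.3, 54 and 44.3 CPM and CREX libraries 42.6, 53.3, 43.1 and 46.7 CPM. Control libraries 2 and 3 were the highest of all 15, and the EX libraries overlapped every other group. The call was lost without any 1 of 8 libraries (control 2 and 3, CR 2 and 4, EX 2 and 3, CREX 1 and 3), with edgeR adjusted p between 0.0526 and 0.082. With the muscle score as a covariate it was kept (-0.44 ± 0.14, adjusted p = 0.0277). Fibroblast markers, whose sum was 170 to 208 CPM in CR and 298 to 360 in control libraries, fell in 5 of 8 cases in the CR group. Summed markers of other cells did not overlap either, at 35.1 to 53.7 against 55.9 to 61.5 CPM for macrophages (3 of 8 fell), 281 to 343 against 362 to 419 for endothelium (3 of 6) and 0.564 to 1.11 against 2.35 to 2.9 for plasma and B cells (2 of 2 tested, with Tnfrsf17 at 0 in all control and Ms4a1 in all CR libraries). Of 8 brown adipocyte markers 2 fell, Ucp1 (-1.02) and Plin1 (-0.67). The part of these lists in the Atf4 result was not tested.

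For training in BAT edgeR called no member, and Xbp1 had the smallest p of the members in each comparison. Xbp1, the transcription factor gene at the centre of the IRE1 branch, read 32, 32.7 and 30.2 CPM in BAT control libraries and 26.8, 33.3, 33.1 and 33.1 CPM in CR libraries. In the trained mice it read 36.5, 52.5, 41.8 and 50.7 CPM in EX libraries and 57.2, 36.2, 49 and 47.8 CPM in CREX libraries. All 8 libraries of trained mice, from 36.2 CPM, lay above all 7 libraries of untrained mice, which reached 33.3 CPM. In the pairwise comparisons 8.10% (EX and control) and 5.15% (CREX and CR) of all genes did not overlap. With the groups pooled, 17 of 13922 genes (0.122%) separated the libraries in this way in either direction. The pooled split was made after the pairwise values had been seen, and Xbp1 was singled out by the same values. This share is therefore a description and no test.

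The test across all genes did not call it. In the EX group compared with the control group Xbp1 had a log2 fold change of 0.53 ± 0.12 (SE, 95% CI 0.26 to 0.80, edgeR adjusted p = 0.363), and in the CREX group compared with the CR group 0.59 ± 0.13 (95% CI 0.30 to 0.88, edgeR adjusted p = 0.356). edgeR called 0 of 10 members in either comparison, against 0% of 13407 genes and 0.00763% of 13112 genes. 2 members reached an unadjusted p under 0.05 in each, Xbp1 with Atf4 in the former (7.25% of all genes) and Xbp1 with Ddit3 in the latter (7.63%), and DESeq2 called 1 member in each, Xbp1 (adjusted p = 0.0243 and 0.0116). The additive fit over all 15 libraries, as said above, was chosen after the pairwise values had been seen and reuses their libraries. In that fit Xbp1 was 1.48-fold higher with EX (log2 fold change 0.56 ± 0.09 SE, 95% CI 0.36 to 0.76) and ranked 2 of 13922 genes by p. An unadjusted p under 0.05 was reached by 10.8% of all genes. No gene was called by edgeR there (0%), since the smallest adjusted p, shared by Xbp1, was 0.101, whereas DESeq2 called Xbp1 (adjusted p = 7.62e-05). Leaving out CREX library 2, the lowest trained library, brought the edgeR adjusted p of Xbp1 to 0.0252.

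Muscle RNA was highest in the CREX libraries of BAT, and Xbp1 was the higher in SkM. The mean of log2(CPM + 1) over the muscle markers was 6.08 to 8.67 in CREX libraries and 0.639 to 8.07 in EX libraries, and 0.348 to 6.67 in control and CR libraries. In EX libraries 1 to 4 the muscle score was 6.18, 8.05, 8.07 and 0.639, and Xbp1 read 36.5, 52.5, 41.8 and 50.7 CPM. With the muscle score as a covariate, the log2 fold change of Xbp1 with EX was 0.55 ± 0.11 (edgeR adjusted p = 0.389). Without it, the log2 fold change was 0.56 (edgeR adjusted p = 0.101). The part of muscle RNA in the Xbp1 result was not tested. For EX in BAT edgeR called no member, Xbp1 included, and DESeq2 called Xbp1 alone. In the additive fit, the log2 fold change with EX was -0.07 for Hspa5 (95% CI -0.20 to 0.07), -0.00322 for Hsp90b1, 0.04 for Pdia4, -0.07 for Pdia6, -0.02 for Calr and -0.04 for Creld2.

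**Figure D2:**
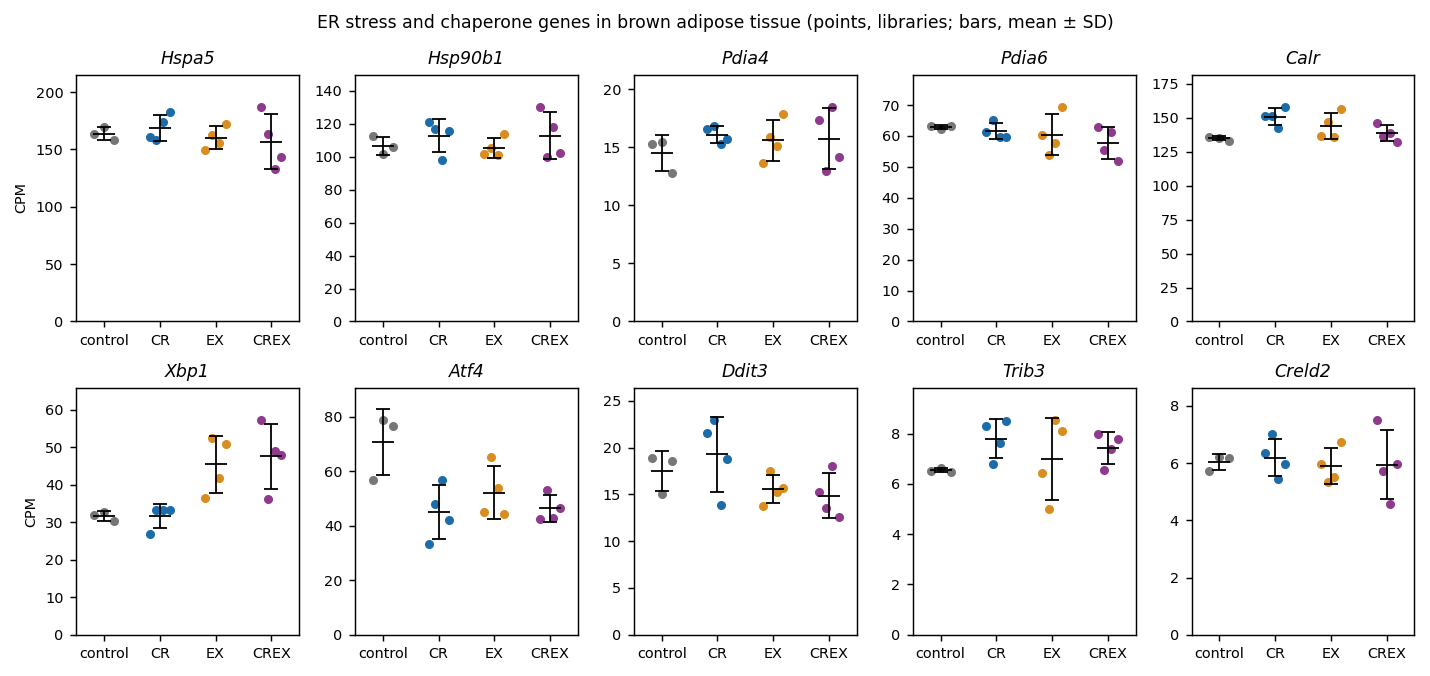
CPM of the 10 members in the 15 BAT libraries by group, with points for libraries and bars for the mean ± SD. The Xbp1 panel shows all EX and CREX libraries, from 36.2 CPM, above all control and CR libraries, which end at 33.3 CPM, and the Atf4 panel shows 2 control libraries above every other library.

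In SkM the CR comparisons were made in the same way. In the CR group compared with the control group, edgeR called 1 of 10 members, Ddit3, which was lower, while 14.0% of 13173 genes were called. Ddit3, which encodes the stress transcription factor CHOP, read 12.1, 12.9, 11.1 and 9.65 CPM in control libraries and 8.38, 8.1 and 8.67 CPM in CR libraries. No CR library reached the lowest control library, as was the case for 27.5% of all genes. The log2 fold change was -0.44 ± 0.12 (SE, 95% CI -0.72 to -0.17, edgeR adjusted p = 0.0397), which is 0.736-fold. Of all genes 7.67% were called lower. Hspa5 and Creld2 also reached an unadjusted p under 0.05, as 29.3% of all genes did, and did not overlap, and DESeq2 called Ddit3 and Hspa5.

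In the CREX group compared with the EX group, Ddit3 was again the only member called by edgeR and was lower, with 13.6% of 13112 genes called and 6.96% called lower. It read 9.86, 11.6, 15.5 and 14.7 CPM in EX libraries and 7.7, 5.46 and 7.46 CPM in CREX libraries, without overlap, as for 28.3% of all genes. The log2 fold change was -0.91 ± 0.19 (SE, 95% CI -1.33 to -0.49, edgeR adjusted p = 0.0174), which is 0.533-fold. Hspa5 and Xbp1 reached an unadjusted p under 0.05 as well (32.3% of all genes), and DESeq2 called the same 3. Without CREX library 1, edgeR called 4 members, Ddit3, Hspa5, Pdia6 and Xbp1. The interaction of CR and EX was called for 0 of 10 members and 0% of 13610 genes, with 0 members at an unadjusted p under 0.05 (4.92% of all genes) and 0 called by DESeq2. For Ddit3 it was -0.45 ± 0.23 on the log2 scale (edgeR adjusted p = 0.941), so a larger effect in trained mice was not shown.

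The Ddit3 calls rested on few libraries. Without any 1 of control libraries 1, 2 and 3 or CR libraries 2 and 3, the edgeR adjusted p of the former call was 0.0769 to 0.121, and without EX library 3 or CREX library 2 that of the latter was 0.0532 and 0.0682. The log2 fold change without 1 library stayed between -0.38 and -0.53 for the former and between -0.76 and -1.02 for the latter. With the slow fibre score as a covariate it was -0.42 ± 0.13 and -0.65 ± 0.24 (edgeR adjusted p = 0.0584 and 0.251), while calls over the whole table in the CREX and EX comparison went from 1781 to 52. Exons of Ddit3 share 68 bases with Mars on the opposite strand, and the counting command in the study's methods sets no strand option, so reads of the overlap cannot be told apart. Mars itself had log2 fold changes of -0.08 and 0.07 in these comparisons and was not called.

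Over all 14 SkM libraries, in an additive fit of CR and EX chosen after the pairwise values had been seen, edgeR called 5 of 10 members for CR, 4 higher and 1 lower, where 33.6% of 13610 genes were called, 16.6% higher and 16.9% lower. An unadjusted p under 0.05 was reached by the same 5 members and 45.1% of all genes. The members that rose were Hspa5, Creld2, Xbp1 and Pdia6, and Ddit3 fell. This fit uses the same libraries as the comparisons above and is no independent evidence for Ddit3, whose log2 fold change was -0.67 ± 0.13 (SE, edgeR adjusted p = 0.000847). All 6 CR and CREX libraries, up to 8.67 CPM, lay below all 8 control and EX libraries, from 9.65 CPM, as 10.8% of all genes separated the libraries in one direction or the other.

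Hspa5, the chaperone that also holds the ER stress sensors inactive, read 77.9, 81.6, 84.8 and 87.2 CPM in control libraries and 102, 96.1 and 99.8 CPM in CR libraries. It read 84.9, 71.6, 82.6 and 80.3 CPM in EX libraries and 90.1, 103 and 107 CPM in CREX libraries. Every library of restricted mice lay above every library of freely fed mice, where 10.8% of all genes separated these libraries in either direction. The log2 fold change with CR was 0.30 ± 0.07 (SE, 95% CI 0.15 to 0.44, edgeR adjusted p = 0.00375), which is 1.23-fold, and the call was kept with every library left out in turn. In the pairwise comparisons it was 0.27 ± 0.10 without EX and 0.33 ± 0.11 with EX (edgeR adjusted p = 0.096 and 0.0684).

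Xbp1 read 51.9, 46.7, 49.3 and 42 CPM in control libraries and 73.1, 46.4 and 48.2 CPM in CR libraries. It read 44.1, 39.1, 44.2 and 43.7 CPM in EX libraries and 43.9, 69.6 and 69.4 CPM in CREX libraries. CR library 1 and CREX libraries 2 and 3 stood far above the rest, and the other 3 libraries of restricted mice lay within the range of freely fed mice. The log2 fold change was 0.38 ± 0.13 (SE, edgeR adjusted p = 0.0302). Without any 1 of control library 4, CR library 1, EX library 2 or CREX libraries 2 and 3 the adjusted p was 0.0512 to 0.083.

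Pdia6 showed the same libraries. It read 20.8, 18.9, 20.1 and 18.1 CPM in control, 26.9, 21.3 and 20.1 in CR, 18.7, 16.9, 17.8 and 19 in EX and 17.7, 22.1 and 24.1 in CREX libraries. The highest 3 were again CR library 1 and CREX libraries 3 and 2, and the groups overlapped. Its log2 fold change was 0.24 ± 0.09 (SE, edgeR adjusted p = 0.0491), and the call was lost without any 1 of 10 libraries (control 2, 3 and 4, CR 1, EX 1 to 4, CREX 2 and 3), with adjusted p of 0.051 to 0.128, and without the filter on low counts (0.0601). Creld2 read 3.31, 3.21, 2.62 and 2.87 CPM in control, 4.74, 3.64 and 3.67 in CR, 3.76, 2.8, 2.31 and 2.79 in EX and 3.2, 4.68 and 4.04 in CREX libraries. Those 3 libraries were the highest for Creld2 too. Its log2 fold change was 0.44 ± 0.13 (SE, edgeR adjusted p = 0.0175), and without CREX library 2 the adjusted p was 0.0506.

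The other members gave wide or small differences with CR in this fit. Hsp90b1 had a log2 fold change of 0.07 (95% CI -0.09 to 0.23), Calr of 0.08 (-0.09 to 0.24), Pdia4 of -0.03 (-0.25 to 0.18), Atf4 of -0.07 (-0.25 to 0.11) and Trib3 of -0.18 (-0.60 to 0.25). Of the 5 members with an ERSE in the window 3 were called, Hspa5, Pdia6 and Creld2, and of the 5 without it 2, Xbp1 and Ddit3, in a fit that called 33.6% of all genes. Atf4, whose mRNA level is only part of its control, lay between 111 and 156 CPM in all 14 libraries.

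**Figure D3:**
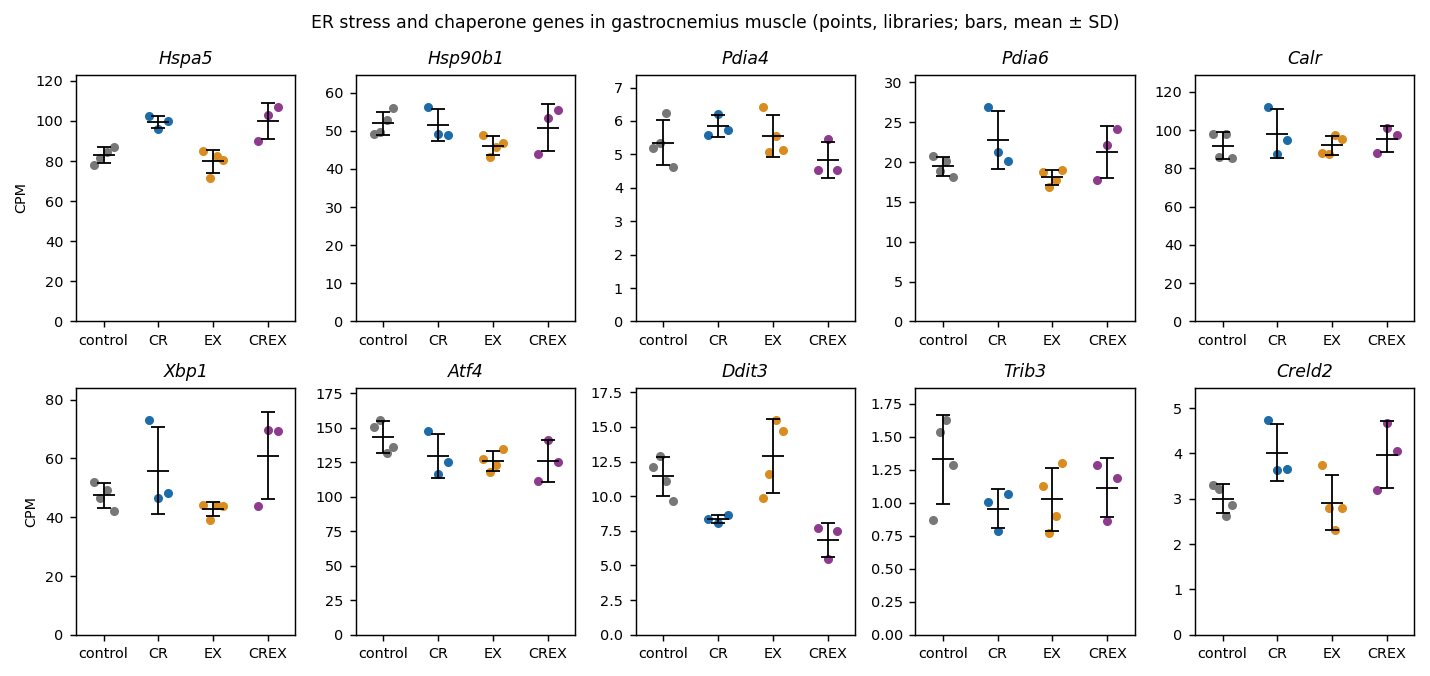
CPM of the 10 members in the 14 SkM libraries by group, with points for libraries and bars for the mean ± SD. CR and CREX libraries lie above the others for Hspa5 (from 90.1 CPM, against at most 87.2) and below them for Ddit3 (up to 8.67 CPM, against at least 9.65), while Xbp1 is high in 1 CR and 2 CREX libraries.

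The 3 libraries with high Xbp1, Pdia6 and Creld2 also held the least endothelial RNA. The mean of log2(CPM + 1) over 6 endothelial markers was 4.72 in CR library 1 and 4.44 and 4.25 in CREX libraries 2 and 3, and 5.05 to 5.71 in the other 11 SkM libraries. The summed markers ran from 180 to 237 CPM in CR, 133 to 277 in CREX, 266 to 334 in control and 267 to 352 in EX libraries, and 5 of 6 fell with CR in the additive fit. With this score as a covariate, an alternative chosen after the values had been seen, edgeR called 0 of the 5 members, with a log2 fold change of 0.15 ± 0.09 for Hspa5, 0.06 for Creld2, -0.12 ± 0.14 for Xbp1, -0.06 ± 0.11 for Pdia6 and -0.49 ± 0.20 for Ddit3 (adjusted p = 0.329, 0.856, 0.631, 0.768 and 0.119), and calls over the whole table went from 4568 to 1473. The endothelial score itself was lower with CR, at 4.724 to 5.064 in CR and 5.355 to 5.597 in control libraries. It was 4.25 to 5.331 in CREX and 5.311 to 5.713 in EX libraries. Because the score moved with CR, the fit that holds both cannot separate them. With the slow fibre score as the covariate instead, Hspa5 and Ddit3 stayed called (adjusted p = 0.0235 and 0.00501) and the other 3 did not. Other lists moved with CR as well, with 4 of 8 fibroblast markers lower and 8 of 8 hepatocyte markers higher. CR library 1 and CREX libraries 2 and 3 also held the highest summed skeletal muscle markers in SkM (176100, 162700 and 138300 CPM). Their mean log2 scores for these markers were 13.34, 12.82 and 12.75, against 12.77 to 13.14 in the other libraries. CREX libraries 2 and 3 held the lowest slow fibre sums, 98.04 and 35.25 CPM. The part of these lists in the result was not tested.

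**Figure D4:**
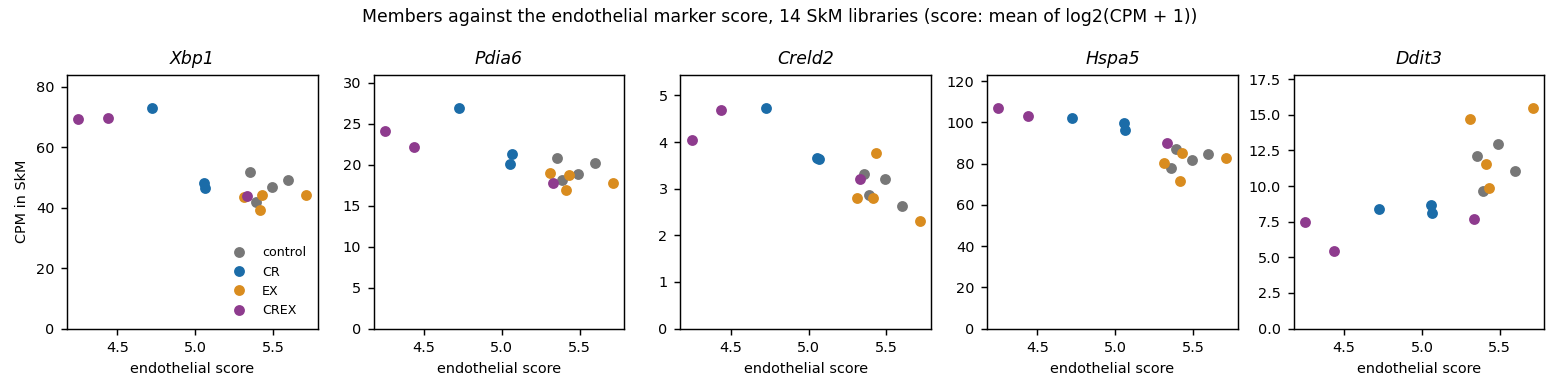
CPM of 5 members against the endothelial marker score (mean of log2(CPM + 1) over 6 markers) in the 14 SkM libraries, coloured by group. The 3 libraries with scores from 4.25 to 4.72 hold the highest Xbp1, Pdia6 and Creld2, and the Ddit3 panel shows every CR and CREX library at or under 8.67 CPM.

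No member was called for training in SkM. In the EX group compared with the control group edgeR called 0 of 10, against 0.0930% of 12907 genes, with Hsp90b1 and Atf4 at an unadjusted p under 0.05 (6.85% of all genes) and 0 called by DESeq2. Hsp90b1 read 49.2, 49.8, 52.9 and 55.9 CPM in control and 48.9, 43.1, 45.6 and 46.8 CPM in EX libraries, without overlap, as for 4.22% of all genes (log2 fold change -0.18 ± 0.08 SE, edgeR adjusted p = 0.712). In the CREX group compared with the CR group edgeR called 0 of 10 members, 0 reached an unadjusted p under 0.05 (3.65% of all genes) and DESeq2 called 0, against 0% of 13068 genes called by edgeR. Pdia4 and Ddit3 did not overlap there and stood lower in CREX libraries (log2 fold change -0.28 and -0.29, edgeR adjusted p = 0.999 for both), as 7.86% of all genes did not. Over all 14 libraries EX was called for 0 of 10 members and 0.0294% of genes, with 0 at an unadjusted p under 0.05 (6.39% of all genes), 0 by DESeq2 and 0 without overlap (0.0514%). Xbp1 had a log2 fold change with EX of -0.03 (95% CI -0.30 to 0.24) in SkM, which does not include its BAT value of 0.56. The difference of the EX effect between tissues was not tested.

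**Figure D5:**
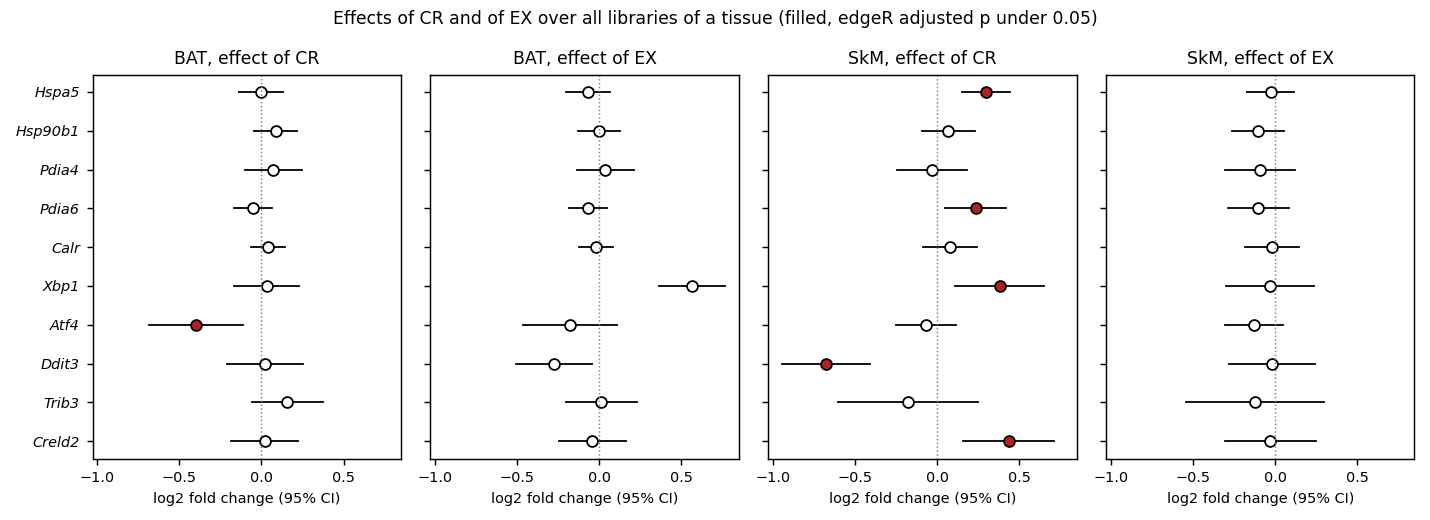
Log2 fold change of each member with CR and with EX over all libraries of a tissue, with 95% confidence intervals and filled points at an edgeR adjusted p under 0.05. Filled points are Atf4 for CR in BAT and Hspa5, Pdia6, Xbp1, Ddit3 and Creld2 for CR in SkM, and Xbp1 for EX in BAT stands at 0.56 unfilled.

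Whether CR acted differently in the tissues was tested directly. Without EX, the difference of the CR effect between BAT and SkM was called for 0 of 10 members and 7.58% of 14369 genes. Atf4, Ddit3 and Trib3 reached an unadjusted p under 0.05, as 23.2% of all genes did, and DESeq2 called 0. Trib3 had the largest difference, 0.74 ± 0.26 on the log2 scale (BAT minus SkM, edgeR adjusted p = 0.102), which passed the threshold without SkM control library 1 (0.89, edgeR adjusted p = 0.0319). Without BAT CR library 3 the difference of Ddit3 passed instead (0.73, edgeR adjusted p = 0.0155).

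In trained mice, the difference was called for 1 of 10 members, Ddit3, and for 5.58% of 14410 genes, with Hspa5 also at an unadjusted p under 0.05 (22.2% of all genes). The CR effect on Ddit3 was higher in BAT than in SkM by 0.84 ± 0.23 on the log2 scale (SE, 95% CI 0.36 to 1.32, edgeR adjusted p = 0.0416). In BAT, Ddit3 read 13.8, 17.5, 15.3 and 15.7 CPM in EX libraries and 15.3, 13.5, 18.1 and 12.6 CPM in CREX libraries, so that those groups overlapped, and its CR effect there was -0.07 ± 0.12. The call held without 1 library only for BAT CREX library 4, SkM EX library 1 and SkM CREX library 1. For each of the other 12 libraries the adjusted p without it was 0.0503 to 0.114.

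The ER pathway around the members was read from lists of its parts. Among the sensors and their processing enzymes, 3 of 10 tested genes fell in CR BAT and none rose, where 10.9% of all genes were called lower and 9.99% higher. They were Creb3l1, an ER-bound transcription factor known for collagen secretion (log2 fold change -1.67, edgeR adjusted p = 0.0013), its relative Creb3l2 (-0.39) and the sensor gene Atf6 (-0.31), and the list's median of -0.22 compares with 0.00453 for all genes. Creb3l1 fell as well in the CREX group compared with the EX group in BAT (-1.29) and in CR SkM (-1.77), where it was the only called gene of its list. Fibroblast markers fell beside it, 5 of 8 in CR BAT and 4 of 8 in CR SkM, and their part was not tested.

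Of 18 ER chaperones and cochaperones outside the members 2 rose in CR BAT, Manf (0.32), a secreted ER stress protein, and Dnajc1 (0.27), a share near the 9.99% of all genes called higher. In SkM 1 of 18 was called, higher, in each CR comparison (6.29% and 6.62% of all genes), Dnajb9 (0.35), a BiP cochaperone and known XBP1 target, in CR mice and Uggt1 (0.44), the glycoprotein folding sensor, in CREX mice. Among disulfide isomerases and oxidases, Qsox1 rose in BAT with CR both without and with EX (0.72 and 0.81). In CR BAT Txndc11 (0.38) and Tmx2 (0.26) also rose and Pdia5 fell (-0.37), against 9.99% and 10.9% of all genes. In SkM P4hb rose (0.57 and 0.56) while Pdia3 fell (-0.41 and -0.38). There 6.29% and 6.62% of all genes were called higher and 7.67% and 6.96% lower.

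Of 24 translocation and glycosylation genes in SkM, 4 rose in CR and 6 in CREX mice and none fell, where 6.29% and 6.62% of all genes were called higher, with medians of 0.20 and 0.22 against 0.00499 and 0.00260 for all genes. They included Ssr3 of the translocon-associated complex (0.66 and 0.79), Stt3b, a catalytic subunit of oligosaccharyltransferase (0.67 and 0.87), and in CREX mice Srpr, the signal recognition particle receptor (0.71). In the same comparisons 4 and 2 of 6 endothelial and 4 and 4 of 8 fibroblast markers fell, and 7 of 7 and 0 of 2 tested hepatocyte markers rose, and their part was not tested. In BAT 2 of 24 rose with CR, Ssr4 and Ssr1, both by less than 0.25. Of 20 degradation genes tested, Ube2j1, an ER ubiquitin-conjugating enzyme, rose in SkM (0.64 and 0.87). In CR BAT 5 of the 20 rose and 1 fell, against 9.99% and 10.9% of all genes, with Herpud1 (1.18), Erlec1 (0.35) and Vimp (0.45) higher and Edem1, a mannosidase-like XBP1 target, lower (-0.45). Herpud1, which encodes an ER membrane protein of degradation, rose also in CREX compared with EX in BAT (0.66).

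The eIF2 alpha and ATF4 branch was mixed. Ppp1r15a (GADD34), a CHOP and ATF4 target that restores translation, fell in CR BAT (-1.08), in CR SkM (-0.69) and in EX SkM (-0.72, edgeR adjusted p = 0.00991), where it was the only gene called of all pathway lists. The other called genes of its list rose, Eif2b1 in BAT with CR without and with EX (0.40 and 0.31), Eif2b3 in CR SkM (0.46) and Eif2b2 in CREX SkM (0.71). Of all genes, 9.99% were called higher and 10.9% lower in CR BAT, and 6.29% and 7.67% in CR SkM. In CREX SkM 6.62% were called higher, and 8.01% were called in either direction in CREX BAT and 0.0930% in EX SkM. Of 20 ATF4 and CHOP target genes tested in CR BAT, 2 rose and 4 fell, against 9.99% and 10.9% of all genes. Asns (0.52) and Pck2 (0.76), both amino acid and carbon metabolism enzymes, rose in CR BAT while Atf4 mRNA stood lower without passing the test, and Atf3, a stress transcription factor, fell (-2.38). In CREX BAT Psat1, an enzyme of serine synthesis, rose compared with EX (1.10) and compared with CR (1.16), where it was the only gene called in the whole table. In SkM 5 of 22 rose and 5 fell with CR, against 6.29% and 7.67% of all genes, among them Stc2 (1.86) and Chac1 (0.97) higher and Atf5 lower (-0.65). With CREX 3 of 22 rose and 1 fell, against 6.62% and 6.96%, including Ddit4 (3.44) and Slc3a2 (0.60) higher and Atf5 lower (-0.86). Of 12 tRNA synthetase genes, 2 rose in CR BAT (9.99% of all genes), Gars (0.25) and Sars (0.22), and 1 in CREX SkM (6.62%), Tars (0.42).

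Xbp1 followed the mean of the 6 folding members across SkM libraries and not across BAT libraries. Over the 14 SkM libraries Pearson's r with the mean z-score of the folding members was 0.91 for Xbp1, which is not part of that mean, -0.54 for Ddit3 and 0.44 for Atf4. Over the 15 BAT libraries it was 0.09 for Xbp1, 0.50 for Ddit3 and -0.42 for Atf4. The folding members were not alike in this. In SkM, r with Xbp1 was 0.03 for Pdia4 and from 0.73 to 0.93 for the other folding members. In BAT it was 0.41 for Pdia4. These are descriptions over libraries that share treatments, depth and tissue make-up, and the 3 SkM libraries named above carry much of the spread. The genes most like the folding members were Mtap, Ctsl, Eif2a, Rpl5 and Derl1 in SkM (r from 0.89 to 0.91) and Zmym6, Plod1, Nme3, Ctr9 and Smarcc1 in BAT (r from 0.83 to 0.87).

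Within a tissue the members covered narrow ranges. The highest library of a member stood 1.19 to 2.36 times above its lowest in BAT, with Calr the steadiest and Atf4 and Xbp1 (2.14 times) the widest. In SkM the ratio ran from 1.31 for Hsp90b1 and Calr to 2.84 for Ddit3. Beyond 1.5-fold, edgeR called a change with CR or EX for Ddit3 alone. It did so in SkM CREX compared with EX (8.87% of all genes) and in the additive CR fit of SkM (13.9%). The tissue difference of the CR effect with EX passed as well (4.57%). With DESeq2, 2 changes in BAT also passed this limit. They were Atf4 in CR compared with control (log2 fold change -0.65, DESeq2 adjusted p = 0.00179) and Xbp1 in CREX compared with CR (0.59, DESeq2 adjusted p = 0.0116). DESeq2 called 2829 and 65 genes of any fold change there.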

How the data were processed

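RNA-seq was performed on 29 libraries, 15 of BAT and 14 of SkM. The authors trimmed paired-end reads with trim-galore, mapped them to mm10 with STAR (2.7.10a in the submitters' processing notes) and estimated gene counts with RSEM. The annotation used for counting is not given in the sources used here. The deposited values are expected counts per gene symbol, of which 6.11% were not whole, and they were rounded. RSEM divides reads shared by near-identical copies by estimation. Of 24770 rows, 27 had symbols turned into dates and 2 symbols were duplicated. No member was among these.

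Each comparison was fitted in edgeR 4.0.16 (R 4.3.3) by the robust quasi-likelihood test on the libraries of the groups compared, after TMM scaling and filterByExpr, with Benjamini-Hochberg adjustment over all genes tested. A gene was called at an adjusted p under 0.05, and the fold limit of the study, 1.5, was used as an alternative. Pairwise comparisons share libraries, and the additive fits reuse them. CPM was scaled by TMM over the libraries of a tissue, marker scores used a pseudocount of 1, and Pearson's r was taken over libraries. Named genes were the members, up to 3 called genes per pathway list and comparison (the smallest p first) and the 5 genes most like the folding members. Pathway genes with an ERSE were named after the search, and Pdia5 because it fell where others of its list rose. Genome coordinates and promoter windows were from RefSeq (GRCm38.p6). Alternatives were DESeq2 1.42.0, no filter, at least 10 counts in every library, a replicate block, all groups in 1 fit, marker covariates and leaving out each library. The members and lists were chosen with earlier results of these data known. Figures used matplotlib 3.10.9.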

Additional observations from a re-analysis of the deposited data

Results flagged for a closer look

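The difference of the CR effect on Ddit3 between BAT and SkM in trained mice was 0.841 on the log2 scale (BAT minus SkM) and passed the test of the difference itself (edgeR adjusted p = 0.0416). A library far from the rest of its group was looked for in 50 sets of values, 1 for each member in each group of 4 libraries, and 2 were found, where chance gives about 1 in 20. Xbp1 read 26.8 CPM in BAT CR library 1, while the other 3 CR libraries lay between 33.1 and 33.3 CPM. Xbp1 read 39.1 CPM in SkM EX library 2, while the other 3 EX libraries lay between 43.7 and 44.2 CPM.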

How the results depend on the processing

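Of 130 counts of called members under alternatives other than leaving out a library, 106 were within 1.5 times the reported count and 24 were not. With DESeq2 the count was 1 in CR against control, EX against control, CREX against CR and the additive EX fit of BAT, and 2 and 3 in CR against control and CREX against EX of SkM. For BAT CR against control it was 1 with at least 10 counts in every library and 1 with all 4 groups in the fit. For SkM CR against control it was 0 with all 4 groups, 0 with either covariate and 0 with the fold limit, and for CREX against EX it was 2 without a filter, 2 with all 4 groups and 0 with either covariate. The additive CR fit gave 0 in BAT without a filter and 0 with the fold limit, and in SkM 2 with the slow fibre score, 0 with the endothelial score and 1 with the fold limit. With the endothelial score, which itself was lower with CR, the log2 fold changes of Pdia6 and Xbp1 turned to -0.0602 and -0.119. Leaving out 1 library gave 9 to 10 called members between control tissues, 2 to 5 for CR in SkM over all libraries, 0 to 4 for SkM CREX against EX, 0 to 2 for the tissue difference with EX, 0 to 1 for the tissue difference without EX, CR against control in either tissue and both additive fits of BAT, and 0 in the others. Where a group had 2 libraries left, the spread was that of the pooled fit. The cause of these changes was not tested.

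Pairing by replicate number between groups of a tissue was not shown. It was not excluded either, since each comparison held only 3 or 4 pairs and single correlations reached 0.497 (BAT CREX against EX, number 3). In no such pairwise comparison was every correlation of same-numbered deviations over 0.1 (means from -0.302 to 0.146). Pairing of BAT and SkM libraries by number was not checked. With the number as a replicate block the count of called members was 1 for BAT CR against control, 0 for the tissue difference with EX and 3 for CR in SkM over all libraries, where Xbp1 and Pdia6 were lost (adjusted p = 0.0947 and 0.108). The Ddit3 call between control tissues was lost as well (adjusted p = 0.0905).

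Genes called over the whole table moved as well. In BAT CR against control 2778 became 1309 with the block and 1430 with the fold limit. In SkM CREX against EX 1781 became 688 with the block, 52 with the slow fibre score, 66 with the endothelial score and 1163 with the fold limit, and in SkM CR against control 1839 became 73 with the endothelial score. In BAT CREX against EX 1061 became 1620 with DESeq2, 1796 with all 4 groups and 594 with the fold limit. The tissue differences went from 1089 and 804 to 1643 and 1363 with DESeq2, and the former to 657 with the block. The additive CR fits went from 4637 and 4568 to 1620 and 1890 with the fold limit, and the SkM fit to 1473 with the endothelial score. For EX, DESeq2 called 74, 65, 105 and 17 genes where edgeR called 0, 1, 12 and 0 in the pairwise comparisons (EX against control and CREX against CR of BAT, then of SkM), and 151 and 27 where edgeR called 0 and 4 in the additive fits. At these depths Trib3 in SkM, at 0.769 to 1.63 CPM, was the least precise member.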
